A study of Mus musculus with 6 samples.

Results

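The genes described here are 39 named genes of the cell cycle and of DNA replication. They were chosen by name, and a gene was measured where at least 1 probe set of the array (a group of probes for 1 transcript) carried its symbol alone in the platform's annotation. This gave 38 of the 39 genes, of 18193 genes in all, through 89 of 34945 such probe sets; no probe set carried Ccnb1 alone. They fell into 17 replication (S phase) genes, 17 measured genes of mitosis, and 4 regulators of the G1 phase. The series compared 2 kinds of cultured mouse T cells on 6 arrays. The 2D11 samples (2D11-1, 2D11-2 and 2D11-4) are labelled CD8aa Tregs (regulatory T cells that carry the CD8 alpha homodimer). The OvacD8 samples (OvacD8-1, OvacD8-2 and OvacD8-3) are labelled OT-1 CD8aa+TCRab+ T cells. OT-1 cells carry a transgenic receptor for a peptide of ovalbumin. All 6 samples are labelled as a T cell clone, and in both groups the cells were grown with their own antigen, with antigen-presenting cells and in medium holding IL-2, a growth factor of T cells. The labels give no time after stimulation, no age or strain and no sign that replicates came from separate cultures. Each group may therefore stand for 1 clone, and the p-values describe the scatter of these arrays alone, part or all of which may be technical.

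A T cell that meets its antigen leaves rest, passes G1 under D-type cyclins and their kinases, copies its DNA in S phase and divides in mitosis. E2F transcription factors, released from the RB family, switch on replication genes such as the MCM helicase, and a later wave of genes, held down in G1 by the DREAM complex, carries the cell through G2 and mitosis. The CDK inhibitors p21 (Cdkn1a) and p27 (Cdkn1b) act as brakes. Proliferating T cells hold both waves of transcripts, so they are widely read as a sign of cycling.

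The deposited values are log2 values centred on the median of each probe set over the 6 arrays, and a gene's value is the mean over its probe sets. For 9 of the 38 genes this averaged a probe set spanning under 0.1 with another spanning 0.1 or more, which shrinks the gene's differences. Centring removed the levels, so values compare arrays for 1 gene and never 1 gene with another, and it cannot be read whether a gene was bright or near background. In these bulk samples, fewer cycling cells and less RNA per cycling cell cannot be told apart. Over the 12198 genes spanning at least 0.1, OvacD8-2 and OvacD8-3 correlated at r = 0.916, while OvacD8-1 correlated with them at 0.286 and 0.296; the 2D11 arrays correlated with each other at 0.674 to 0.754. The poly-A spike-in controls (24 probe sets for bacterial RNA added before labelling) averaged -1.58 and -2.39 on OvacD8-2 and OvacD8-3, 0.49 on OvacD8-1 and -0.11 to 0.82 on the 2D11 arrays. The 3 array controls for Gapdh, a glycolytic enzyme, averaged 1.53 and 1.59 on OvacD8-2 and OvacD8-3 and -0.21 to 0.076 on the other 4 arrays. Of 7 B cell markers, 5 spanned less than 0.1 over the arrays. Among 9 measured markers of macrophages and dendritic cells, Lyz2 stood at 2.70 on OvacD8-1 against -1.91 and -2.83 on OvacD8-2 and OvacD8-3, Csf1r stood at 1.17 on OvacD8-1 and between -0.076 and 0.0027 elsewhere, and Cd68 stood at 3.34 and 3.44 on OvacD8-2 and OvacD8-3. The mean over the 9 was 0.46, 0.26 and 0.21 on OvacD8-1, OvacD8-2 and OvacD8-3. On the 2D11 arrays it lay between -0.14 and -0.025. The median over the 9 stayed between -0.021 and 0.012 on all 6 arrays, so a few of the markers set the mean. The lowest limma adjusted p among the 9 was 0.0528, for Cd14. Of 10 measured T cell markers, 2 passed between the groups, both lower in 2D11: Cd8b1, the CD8 beta chain (-2.36 ± 0.11, adjusted p = 0.00093), and Cd247, a CD3 chain (-0.90 ± 0.11, 0.0151). Cd247 did not pass without 2D11-1, 2D11-2, OvacD8-2 or OvacD8-3 (adjusted p up to 0.0666). The other CD3 chain genes differed in direction on OvacD8-1: Cd3d stood above the 2D11 arrays there (0.16 against -0.37 to -0.16), and Cd3e (-0.25) and Cd3g (-0.73) had their lowest value there. The part that spike-in, Gapdh and myeloid values play in the results was not tested.

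On all 6 arrays, cell cycle genes passed between the groups at a share near that of all genes. Most genes of mitosis separated the OvacD8 arrays from each other. Between the groups, 2 of the 38 genes passed (5.26%; limma, Benjamini-Hochberg adjusted p under 0.05 over all genes), against 6.67% of all genes tested: Pcna was lower and Tyms higher in 2D11. At an unadjusted p under 0.05 it was 7 of 38, against 19.9%. The groups did not overlap for 5 of the 38 (Bub1b, Ccnd3, Cdk2, Pcna and Tyms), against 23.3% of all genes. Without OvacD8-1, 12 of the 38 passed, 5 higher and 7 lower in 2D11, against 17.2% of all genes. That fit sets 2D11 against OvacD8-2 and OvacD8-3 alone, so group and spike-in side cannot be told apart in it. The array left out is the one that differed, so p-values from this fit, here and below, describe the split and do not test it. With the spike-in side of each array as a term, 2 passed, Cdk2 higher and Pcna lower, against 7.48% of all genes (2.83% higher and 4.66% lower). OvacD8-2 and OvacD8-3 stood above the 4 other arrays for 12 of the 17 mitosis genes (70.6%), where 13.9% of all genes did so, and for 3 of the 17 replication genes (17.6%). OvacD8-1 was the lowest of the 6 arrays for 12 of the 17 mitosis genes (70.6%, against 10.8% of all genes) and for 5 replication genes (29.4%). The order OvacD8-1, then all 2D11 arrays, then both OvacD8-2 and OvacD8-3 was met by 9 mitosis genes (52.9%) and by 2.85% of all genes. OvacD8-2 and OvacD8-3 lay below the 4 other arrays for 4 of the 17 replication genes, all of them MCM genes. They did so for 0 of the 17 mitosis genes and for 19.1% of all genes, a share near that of the replication genes. These orders were described after the values had been seen, and carry no test.

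**Figure D1:**
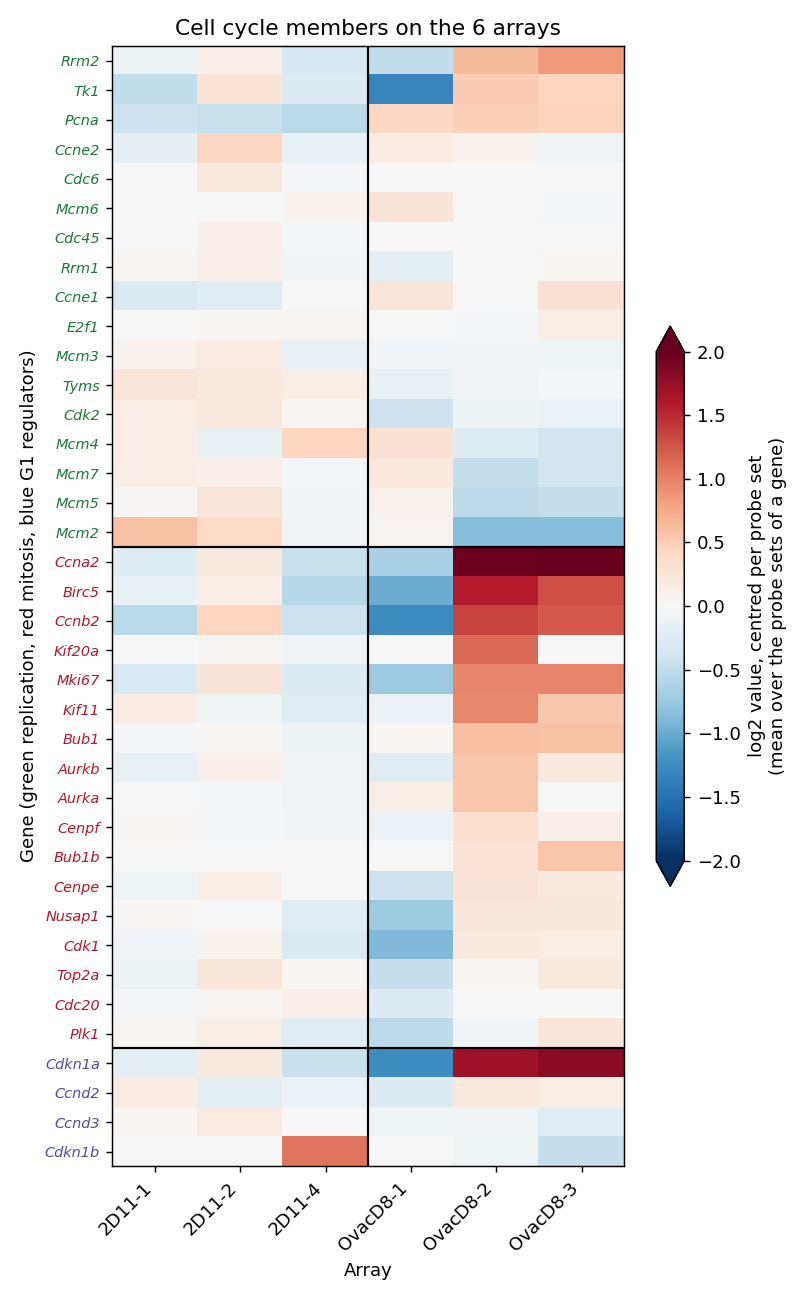
Heat map of the 38 measured genes (rows, grouped as replication, mitosis and G1 regulators, each group ordered by the value on OvacD8-2) on the 6 arrays (columns). Colour is the centred log2 value, saturated at 2 in either direction; most mitosis genes are red on OvacD8-2 and OvacD8-3 and blue on OvacD8-1, while Mcm2, Mcm5 and Mcm7 are blue on OvacD8-2 and OvacD8-3.

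**Figure D2:**
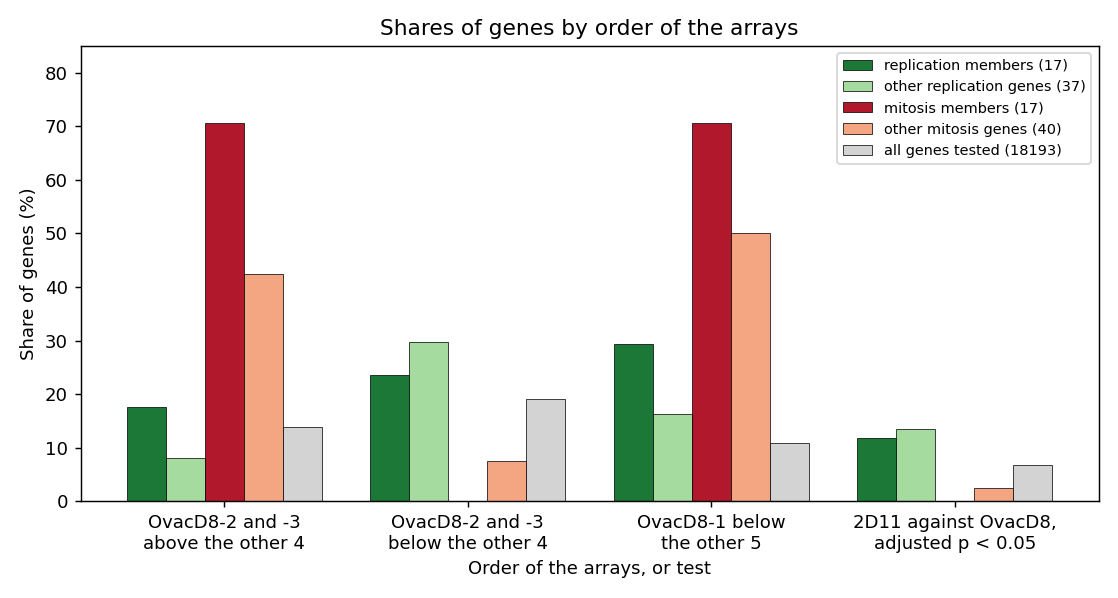
Shares of genes (y axis, percent, from 0) that meet each of 3 orders of the arrays, or that passed the test between the groups (x axis), for the replication and mitosis genes, for other genes of both processes, and for all genes tested (grey). The mitosis genes reach 70.6% for OvacD8-2 and OvacD8-3 above the other arrays and for OvacD8-1 below them, where all genes reach 13.9% and 10.8%.

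Among the genes of mitosis, the widest spread was that of the cyclin genes and of Birc5. Ccna2 encodes cyclin A2, the partner of CDK2 and CDK1 in S phase and G2. It stood at -0.24, 0.18 and -0.44 on 2D11-1, 2D11-2 and 2D11-4, and at -0.65, 1.96 and 2.00 on OvacD8-1, OvacD8-2 and OvacD8-3. Both higher arrays lay far above all 2D11 arrays and OvacD8-1 below them: the mean of OvacD8-2 and OvacD8-3 was 4.43-fold the 2D11 mean and 6.22-fold OvacD8-1. Both probe sets of Ccna2 had this order. Over all 6 arrays the difference, 2D11 minus OvacD8, was -1.27 ± 0.80 (SE, n = 3 per group; limma adjusted p = 0.532), and the OvacD8 values spread by an SD of 1.52 against 0.32 in 2D11. Without OvacD8-1 it was -2.15 ± 0.20 (adjusted p = 0.00666), a fit in which group and spike-in side cannot be told apart.

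Ccnb2, which encodes cyclin B2, a partner of CDK1 at mitotic entry, was at -0.54, 0.43 and -0.43 on the 2D11 arrays and at -1.26, 1.36 and 1.23 on the OvacD8 arrays. Birc5 encodes survivin, a subunit of the chromosomal passenger complex. Its values were -0.14, 0.14 and -0.57 in 2D11 and -0.99, 1.59 and 1.29 in OvacD8. For both genes the groups overlapped only because OvacD8-1 lay under every 2D11 array, with OvacD8-2 and OvacD8-3 above every one. Taken as the mean of OvacD8-2 and OvacD8-3 over OvacD8-1, the ratio was 5.85 for Ccnb2 and 5.39 for Birc5. The difference between the groups did not pass for either (-0.62 ± 0.81, adjusted p = 0.828, and -0.82 ± 0.75, adjusted p = 0.715). Birc5 passed without OvacD8-1 (-1.63, adjusted p = 0.0208), where Ccnb2 did not (-1.47, adjusted p = 0.0608).

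Mki67, the source of the proliferation marker Ki-67, was -0.30, 0.26 and -0.26 on the 2D11 arrays, -0.73 on OvacD8-1, and 0.98 and 0.97 on OvacD8-2 and OvacD8-3. It followed the same order, with OvacD8-2 and OvacD8-3 at 2.11-fold the 2D11 mean (-1.08 ± 0.20, adjusted p = 0.0358 without OvacD8-1; 0.76 with it). Bub1 encodes a kinase of the spindle checkpoint. It was -0.038, 0.044 and -0.10 in 2D11, 0.038 on OvacD8-1, and 0.60 and 0.59 on OvacD8-2 and OvacD8-3. Here OvacD8-1 stood within the 2D11 values rather than below them. Without OvacD8-1 Bub1 was lower in 2D11 (-0.63 ± 0.05, adjusted p = 0.00454), and with it the gene did not pass (-0.44 ± 0.17, adjusted p = 0.25). The difference came through 1 of its probe sets (-0.84), the other being nearly flat (-0.043). Bub1b, for the checkpoint protein BUBR1, was the only mitosis gene whose groups did not overlap. The gene mean stood between -0.011 and 0.0095 in 2D11 and at 0.013, 0.27 and 0.56 in OvacD8. Each of its 3 probe sets overlapped between the groups on its own, so the narrow gap came from averaging them. Bub1b was lower in 2D11 and did not pass (-0.29 ± 0.14, adjusted p = 0.383). Groups without overlap were found for 10.7% of all genes in that direction and for 12.6% in the other.

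Cdk1, the kinase that drives mitotic entry, differed mainly by a low value on OvacD8-1 (-0.89). It was -0.076, 0.076 and -0.30 on the 2D11 arrays and 0.20 and 0.13 on OvacD8-2 and OvacD8-3. Nusap1, for a spindle microtubule protein, had the same form: -0.72 on OvacD8-1, 0.23 and 0.22 on OvacD8-2 and OvacD8-3, and -0.23 to 0.021 in 2D11. These are means over a nearly flat probe set (spanning 0.061) and another at -1.435, 0.487 and 0.446 on OvacD8-1, OvacD8-2 and OvacD8-3. Kif11, the motor that separates spindle poles, differed on the other side. It was 0.96 and 0.54 on OvacD8-2 and OvacD8-3 against -0.11 on OvacD8-1 and -0.23 to 0.15 in 2D11. A probe set of Kif11 did not share this, being highest on 2D11-1 (0.31) and lowest on OvacD8-3 (-0.14), while its other probe sets did. Neither form reached the threshold between the groups (adjusted p = 0.935 for Cdk1, 0.983 for Nusap1 and 0.468 for Kif11).

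A pair of mitosis genes was high on OvacD8-2 alone. Kif20a, for a motor of the cleavage furrow, was 1.13 there and -0.074 to 0.049 on the 5 other arrays. Aurka, the centrosomal Aurora kinase, was 0.55 there and -0.07 to 0.12 elsewhere. Aurkb, its relative in the chromosomal passenger complex, was 0.55 on OvacD8-2, 0.20 on OvacD8-3, -0.21 on OvacD8-1 and -0.15 to 0.11 in 2D11. Among the remaining mitosis genes the centromere genes Cenpe and Cenpf spanned 0.67 and 0.45, and Top2a, for topoisomerase II alpha, spanned 0.69. Plk1, a mitotic kinase, spanned 0.77, and Cdc20, an activator of the anaphase-promoting complex, spanned 0.36. All 5 had their lowest value on OvacD8-1. The probe sets of Top2a disagreed. Of these, 1 was -0.72, 0.65 and 0.48 on OvacD8-1, OvacD8-2 and OvacD8-3, against -0.22 to 0.094 in 2D11. Another was -0.66, -0.55 and 0.077 on the same arrays, against -0.077 to 0.52 in 2D11. The last spanned 0.093. Of the 17 mitosis genes, 0 passed between the groups (limma, all 6 arrays; 1, Bub1, at an unadjusted p under 0.05), and 4 were lower in 2D11 and 0 higher without OvacD8-1 (against 9.4% and 7.8% of all genes in that fit). The median difference over the 17 was -0.26, and -0.41 without OvacD8-1, where all genes had medians of 0.0069 and 0.013. With the spike-in side as a term, a fit that sets 2D11 against OvacD8-1 alone, it turned to 0.41.

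**Figure D3:**
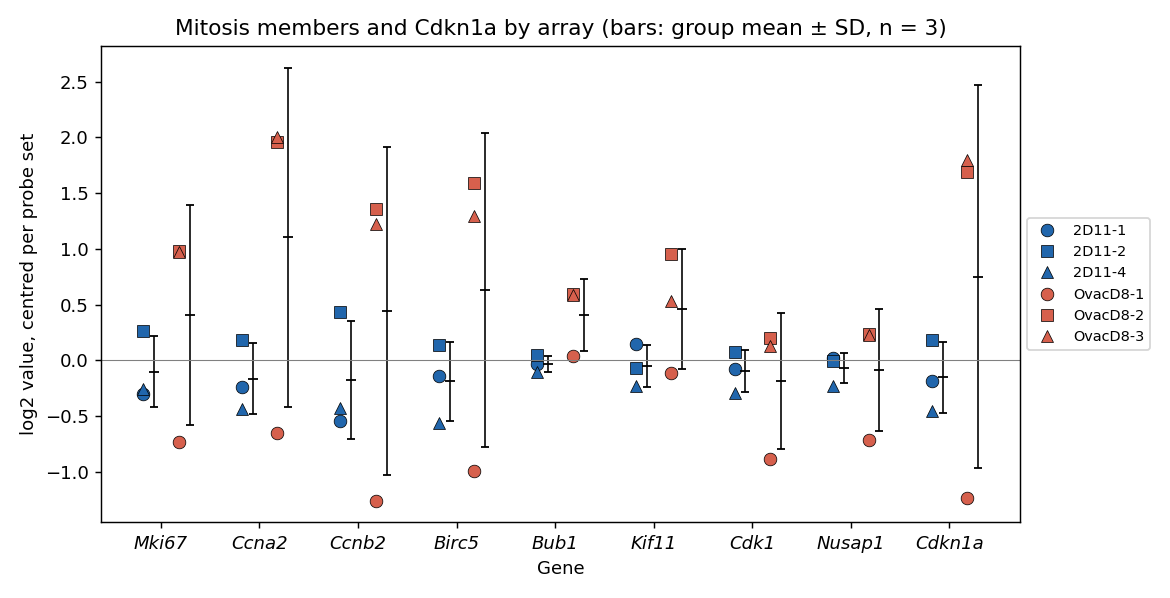
Centred log2 values (y axis) of 8 mitosis genes and Cdkn1a (x axis) on each array, 2D11 in blue and OvacD8 in orange, with the mean and SD of each group of 3 beside the points. OvacD8-2 and OvacD8-3 are the highest for every gene shown, and OvacD8-1 is the lowest for all but Bub1 and Kif11.

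Promoters of mitosis genes are known for CHR elements, the sites of the DREAM complex, set near CCAAT boxes. RefSeq windows (GRCm38.p6, 250 bases before to 50 after a start) were found for 15 of the 18 named mitosis genes. The letters TTTGAA, or in a variant form of the element TTCGAA, on either strand, occurred in the windows of 11 of these 15 genes (73.3%), against 21.7% of 27025 genes with a window. CCAAT, on either strand, occurred in 13 (86.7%, against 41.1%), and both together in 11 (73.3%, against 8.61%). These counts rest on the sequence alone and use none of the array values, and a match is a description, not a site. Birc5, Ccnb1, Cenpe and Nusap1 had no CHR-type letters in their window. The stretches from 200 bases before to 20 after the start of 4 mitosis genes that were high on OvacD8-2 and OvacD8-3 are shown because each holds both groups of letters. Capitals mark the CHR-type letters and CCAAT, on either strand. They lie at chr9:70421535-70421754 (Ccnb2, minus strand), chr7:135716360-135716579 (Mki67, minus strand), chr2:127831840-127832059 (Bub1, minus strand) and chr19:37376182-37376401 (Kif11, plus strand).
Ccnb2: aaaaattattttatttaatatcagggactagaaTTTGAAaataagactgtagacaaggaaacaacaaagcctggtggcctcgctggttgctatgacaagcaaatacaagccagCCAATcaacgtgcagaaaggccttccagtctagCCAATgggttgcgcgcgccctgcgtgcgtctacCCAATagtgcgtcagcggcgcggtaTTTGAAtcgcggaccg
Mki67: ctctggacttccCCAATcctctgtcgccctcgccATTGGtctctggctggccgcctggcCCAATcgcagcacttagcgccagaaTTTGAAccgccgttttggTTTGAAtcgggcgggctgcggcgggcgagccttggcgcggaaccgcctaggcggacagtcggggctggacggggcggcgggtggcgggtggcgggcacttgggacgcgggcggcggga
Bub1: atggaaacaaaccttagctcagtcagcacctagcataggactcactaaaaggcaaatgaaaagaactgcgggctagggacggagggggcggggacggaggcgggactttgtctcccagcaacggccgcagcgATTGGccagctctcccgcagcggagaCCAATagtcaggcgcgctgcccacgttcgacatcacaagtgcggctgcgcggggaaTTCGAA
Kif11: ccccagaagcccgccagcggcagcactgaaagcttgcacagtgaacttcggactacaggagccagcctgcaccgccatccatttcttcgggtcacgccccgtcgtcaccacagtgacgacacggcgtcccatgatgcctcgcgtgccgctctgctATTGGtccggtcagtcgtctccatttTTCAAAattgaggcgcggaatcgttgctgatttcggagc
In Ccnb2 CHR-type letters begin 167 bases before the start and again at base 5 after it, and the nearest CCAAT begins 21 bases before it. In Bub1 they begin at base 15 after the start, and the nearest CCAAT begins 42 bases before it. In Kif11 both lie before the start, the CHR-type letters at base 19 and CCAAT at base 45.

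The replication genes did not move as 1 group. Pcna, the sliding clamp of DNA polymerases, was the clearest difference of all 38 genes between the groups. It stood at -0.41, -0.44 and -0.54 on the 2D11 arrays and at 0.41, 0.47 and 0.44 on the OvacD8 arrays. All 3 OvacD8 arrays lay together, OvacD8-1 among them, and the groups did not overlap. Pcna was lower in 2D11, with a difference of -0.90 ± 0.042 (SE, n = 3 per group; limma adjusted p = 0.000872), with adjusted p of 0.00167 to 0.0108 when each array was left out in turn. It rests on a single probe set. Tyms, the thymidylate synthase of nucleotide synthesis, was 0.24, 0.20 and 0.12 in 2D11 and -0.13, -0.065 and -0.045 in OvacD8, again without overlap. It was higher in 2D11 by 0.27 ± 0.042 (adjusted p = 0.0299). This small difference is a mean over 4 probe sets with differences of 0.0084 to 0.70, and a further probe set shared with a Tyms pseudogene was left out. Tyms did not pass without 2D11-1 (adjusted p = 0.0962), 2D11-2 (0.115), OvacD8-2 (0.108) or OvacD8-3 (0.0855).

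The MCM2-7 proteins form the ring of the replicative helicase. Of their 6 genes, 4 were lowest on OvacD8-2 and OvacD8-3, an order met by 19.1% of all genes. No other replication gene of the 17 met it, so the share over all 17 was near that of all genes. The order was described after the values had been seen, and carries no test. Mcm2 was 0.59, 0.38 and -0.05 in 2D11, 0.05 on OvacD8-1, and -0.86 and -0.85 on OvacD8-2 and OvacD8-3. Mcm5 was 0.017, 0.24 and -0.061, then 0.091, -0.52 and -0.46 on the same arrays. Mcm7 was 0.11, 0.10 and -0.04 in 2D11 and 0.21, -0.48 and -0.38 in OvacD8. For these 3 genes OvacD8-1 lay with or above the 2D11 arrays. OvacD8-2 and OvacD8-3 lay below all others, on the side opposite to most mitosis genes. Not every probe set of these genes had this order. In a probe set of Mcm7, OvacD8-3 (-0.14) lay above 2D11-4 (-0.29). In a probe set of Mcm5 spanning 0.17, OvacD8-3 stood at 0.090, against -0.081 to 0.089 in 2D11. On all 6 arrays none of the 3 passed (differences of 0.86 ± 0.32, 0.36 ± 0.19 and 0.27 ± 0.20; adjusted p = 0.23, 0.42 and 0.61). Without OvacD8-1 each was higher in 2D11, by 1.16 (adjusted p = 0.0324), 0.56 (0.0364) and 0.49 (0.0162). In that fit group and spike-in side cannot be told apart. Mcm4 had the same order (-0.24 and -0.36 on OvacD8-2 and OvacD8-3, -0.15 to 0.43 elsewhere) and passed in neither fit (adjusted p = 0.74 and 0.258). Mcm3 and Mcm6 each spanned 0.31 in all and did not pass, though 1 probe set of Mcm3 was higher in 2D11 when tested on its own (0.26, adjusted p = 0.026 over all probe sets).

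A few replication genes ran with mitosis instead. Rrm2, the small subunit of ribonucleotide reductase, which makes deoxyribonucleotides, was -0.11, 0.11 and -0.35 in 2D11 and -0.50, 0.63 and 0.85 in OvacD8. Tk1, the thymidine kinase of nucleotide salvage, was -0.49, 0.27 and -0.27 in 2D11 and -1.33, 0.50 and 0.43 in OvacD8. In both, OvacD8-1 was lowest and OvacD8-2 and OvacD8-3 were highest, 2.36-fold and 3.47-fold above OvacD8-1. Neither passed over all arrays (-0.44 ± 0.39, adjusted p = 0.707; -0.032 ± 0.57, 0.983), and without OvacD8-1 Rrm2 was lower in 2D11 (-0.85, 0.0372) while Tk1 did not pass (-0.63, 0.212). Rrm1, the large subunit of the same enzyme, spanned 0.29 and did not pass (adjusted p = 0.725).

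Cdk2, the S phase kinase, was 0.14, 0.20 and 0.059 in 2D11 and -0.41, -0.10 and -0.12 in OvacD8, without overlap. Cdk2 had 2 probe sets, with differences of 0.019 and 0.66. It did not pass (0.34 ± 0.10, adjusted p = 0.144), and did without OvacD8-1 (0.24, adjusted p = 0.0434). With the spike-in side as a term, which sets 2D11 against OvacD8-1 alone, the difference was 0.54. Its partner gene Ccne1 (cyclin E1) was -0.29 to -0.0038 in 2D11 and -0.0051 to 0.31 in OvacD8, and Ccne2 ran from -0.17 to 0.41 within 2D11 alone. The loading factor gene Cdc6, the helicase cofactor gene Cdc45 and the transcription factor gene E2f1 spanned 0.24, 0.14 and 0.17. These 5 genes did not pass in either fit (lowest adjusted p = 0.182, for Ccne1 on all arrays). With no level, and for Cdc6, Cdc45 and E2f1 so narrow a range, equal expression is not shown for any of the 5. The median difference over the 17 replication genes was 0.045; 7 passed without OvacD8-1, 5 higher and 2 lower in 2D11 (29.4% and 11.8%, against 7.8% and 9.4% of all genes).

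**Figure D4:**
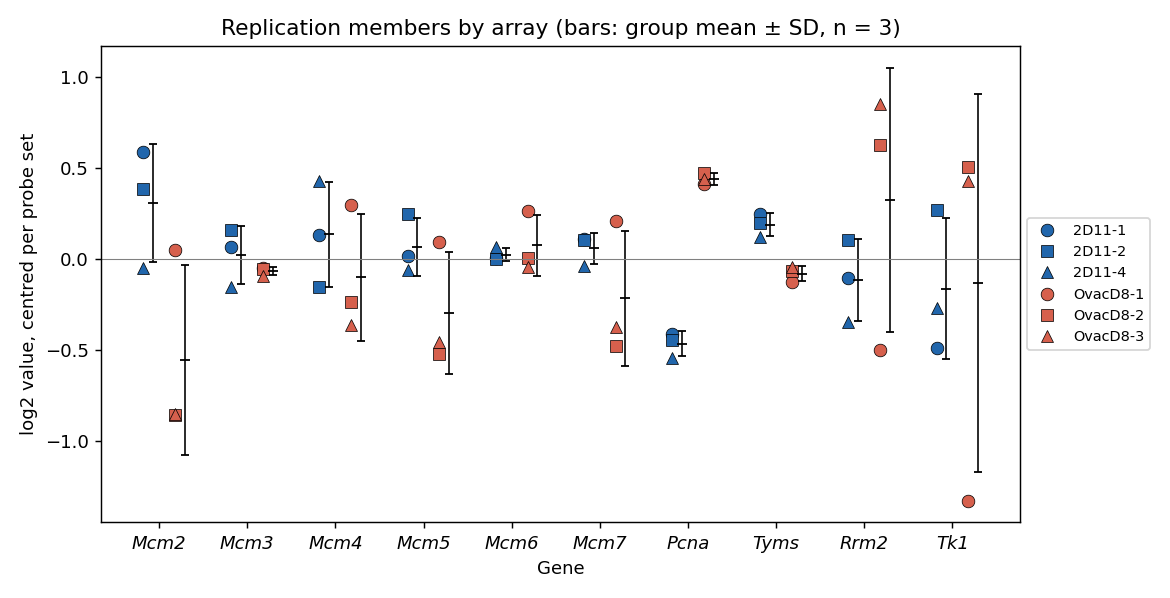
Centred log2 values (y axis) of 10 replication genes (x axis) on each array, 2D11 in blue and OvacD8 in orange, with the mean and SD of each group of 3 beside the points. Pcna separates the groups with all OvacD8 arrays above and all 2D11 arrays below 0, Mcm2, Mcm5 and Mcm7 are lowest on OvacD8-2 and OvacD8-3, and Rrm2 and Tk1 are lowest on OvacD8-1.

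Replication genes are known as targets of E2F factors. Windows were found for 15 of the 17 genes. The letters TTTCCCGC, TTTGGCGC, TTTCGCGC or TTTGGCGG, on either strand, were found in 6 of these genes (40%), against 2.7% of all genes with a window and 1 of the 15 mitosis genes (6.67%). CHR-type letters were found in 3 (Cdc45, Mcm2 and Mcm7; 20%), a share near that of all genes (21.7%). Mcm2, which ran furthest against most mitosis genes, had CHR-type letters and CCAAT in its window and no E2F-type letters. Whether such letters go with the direction of a gene was not tested. The stretches of Mcm5 (chr8:75109309-75109528, plus strand) and of the first of the Mcm7 windows (chr5:138171864-138172083, minus strand), again 200 bases before to 20 after the start, are shown because these genes ran against the mitosis genes and hold E2F-type letters. Capitals mark the E2F-type letters, CCAAT, and in Mcm7 also a CHR-type TTCGAA.
Mcm5: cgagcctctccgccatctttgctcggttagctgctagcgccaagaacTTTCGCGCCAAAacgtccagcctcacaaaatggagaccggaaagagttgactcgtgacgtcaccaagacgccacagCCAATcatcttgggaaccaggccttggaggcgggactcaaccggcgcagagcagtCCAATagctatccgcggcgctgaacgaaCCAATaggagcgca
Mcm7: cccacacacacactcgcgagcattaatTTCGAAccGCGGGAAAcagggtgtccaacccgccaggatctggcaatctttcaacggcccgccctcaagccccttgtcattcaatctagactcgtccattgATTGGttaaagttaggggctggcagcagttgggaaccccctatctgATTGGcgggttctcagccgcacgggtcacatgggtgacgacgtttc
In Mcm5 a pair of E2F-type matches, 1 on each strand, overlap from 153 bases before the start. In Mcm7 an E2F-type match begins 165 bases before it, and a further one begins 17 bases after it and is cut by the end of the stretch, so it is not in capitals. Cdc6, Cdk2, Mcm3 and Mcm6 are the others with such letters, and of these Cdc6, Mcm3 and Mcm6 did not pass in either fit.

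Of the 4 regulators of G1, Cdkn1a had the widest range of all 38 genes (3.03). It encodes p21, a CDK inhibitor and a target of p53. Its values were -0.18, 0.18 and -0.45 on the 2D11 arrays, -1.24 on OvacD8-1, and 1.69 and 1.80 on OvacD8-2 and OvacD8-3. The inhibitor thus had the same order as some of the mitosis genes, Ccna2, Ccnb2, Birc5 and Mki67 among them. OvacD8-2 and OvacD8-3 stood at 3.72-fold the 2D11 mean and 7.88-fold OvacD8-1, and both probe sets of Cdkn1a shared the order. Between the groups it did not pass (-0.90 ± 0.91, adjusted p = 0.744), and without OvacD8-1 it was lower in 2D11 (-1.89 ± 0.21, adjusted p = 0.00932). Cdkn1b, for p27, was set apart by 1 array of the 2D11 group: 1.08 on 2D11-4 against -0.012 and -0.0054 on 2D11-1 and 2D11-2, and 0.0054, -0.081 and -0.46 in OvacD8 (0.53 ± 0.35, adjusted p = 0.554).

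The D-type cyclins Ccnd2 and Ccnd3 join CDK4 and CDK6 in G1. Their gene means hid probe sets that disagreed. Ccnd3 was -0.0022 to 0.16 in 2D11 and -0.22 to -0.074 in OvacD8, a difference of 0.19 ± 0.063 (adjusted p = 0.179). Of its 3 probe sets, 1 was -0.38 to 0.048 on the 2D11 arrays, -0.048 on OvacD8-1 and 1.30 and 1.40 on OvacD8-2 and OvacD8-3. Another ran the opposite way, from 0.19 to 0.41 in 2D11 to -0.19, -1.44 and -2.06 in OvacD8, and the last spanned 0.15. Ccnd2 was 0.15, -0.20 and -0.12 on 2D11-1, 2D11-2 and 2D11-4, and -0.26, 0.19 and 0.12 on OvacD8-1, OvacD8-2 and OvacD8-3. It had 7 probe sets with differences of -0.70 to 0.68 and a gene mean that did not pass (-0.074 ± 0.16, adjusted p = 0.914). When every probe set was tested on its own, 1 of the 7 was higher in 2D11 (0.68, adjusted p = 0.0477 over all probe sets). No direction is given for either cyclin.

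The arrays were also set singly against the 2D11 mean, with a 2-fold difference (1 on the log2 scale) as the mark and no test. OvacD8-2 stood at least 2-fold higher for 6 of the 17 mitosis genes (35.3%, against 4.07% of all genes): Birc5, Ccna2, Ccnb2, Kif11, Kif20a and Mki67. OvacD8-3 did so for 4 (23.5%, against 3.99%): Birc5, Ccna2, Ccnb2 and Mki67. Mcm2 was the only replication gene at least 2-fold from the 2D11 mean on either array, and it was lower (against 1.63% and 1.88% of all genes). With Cdkn1a, this made 8 of the 38 genes either way on OvacD8-2 and 6 on OvacD8-3 (21.1% and 15.8%, against 5.69% and 5.86%). OvacD8-1 differed 2-fold for 3 of the 38 genes, Ccnb2, Cdkn1a and Tk1, all lower (7.89%, against 1.56% of all genes lower, 2.1% higher and 3.66% either way). Against the mean of OvacD8-2 and OvacD8-3, OvacD8-1 was at least 2-fold lower for 8 genes (21.1%, against 2.43% of all genes) and at least 2-fold higher for 0 (0.786% of all genes, and 3.22% either way). The 8 were Birc5, Ccna2, Ccnb2, Cdk1, Mki67, Rrm2, Tk1 and Cdkn1a. In contrast, OvacD8-2 and OvacD8-3 differed 2-fold from each other for Kif20a alone (0.137% of all genes).

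Within 2D11 few genes differed 2-fold. Set against the other arrays of its group, 2D11-1 and 2D11-2 differed 2-fold for 0 of the 38 genes (0.077% and 0.192% of all genes), and 2D11-4 did so for 1, Cdkn1b (2.63%, against 0.132%). Smaller differences remained: the median of 2D11-2 minus the mean of its group's other arrays was 0.16 over the mitosis genes and 0.10 over the replication genes, against 0.017 over all genes. The median over the 17 mitosis genes was -0.038, 0.076 and -0.10 on 2D11-1, 2D11-2 and 2D11-4, and -0.41, 0.55 and 0.22 on OvacD8-1, OvacD8-2 and OvacD8-3. For the 17 replication genes the medians were 0.0053, 0.11 and -0.043 in 2D11 and 0.0012, -0.0051 and -0.044 in OvacD8. Mitosis genes therefore stood apart on the OvacD8 arrays in opposite directions, while the middle of the replication list stayed near 0 on every OvacD8 array.

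**Figure D5:**
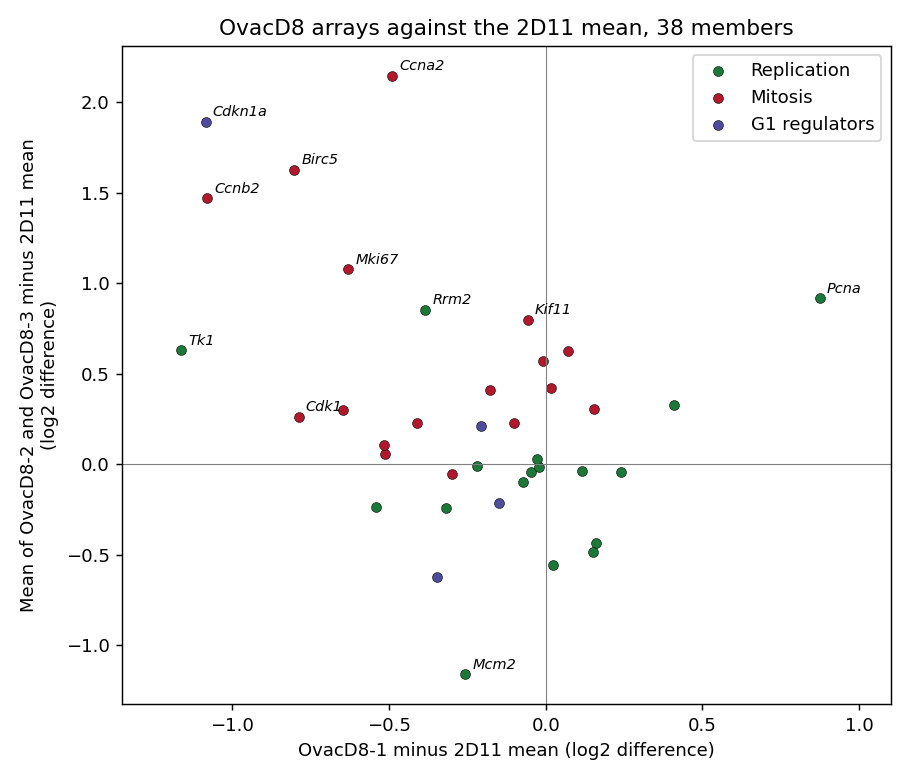
Each point is 1 of the 38 genes, with the log2 difference of OvacD8-1 from the 2D11 mean on the x axis and that of the mean of OvacD8-2 and OvacD8-3 on the y axis (both axes share the 2D11 mean). Ccna2, Ccnb2, Birc5, Mki67 and Cdkn1a lie at the upper left, Mcm2 lies at the bottom, and Pcna lies at the upper right, where both parts of the OvacD8 group are above 2D11.

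Further genes of these processes, from lists of other members of the same machinery, gave the following counts. Of 37 other replication genes measured, 5 were higher in 2D11 and 0 lower (13.5%, against 3.3% of all genes higher). The 3 largest were Pole (0.71 ± 0.13, adjusted p = 0.0474), the catalytic subunit of polymerase epsilon; Pola1 (0.62 ± 0.10, 0.0298; probe sets from 0.013 to 1.24), that of polymerase alpha; and Tipin (0.53 ± 0.054, 0.00974), a replication fork protein. Pole was 0.56, 0.58 and 0.18 in 2D11 and -0.18, -0.21 and -0.40 in OvacD8. In these genes OvacD8-1 lay with OvacD8-2 and OvacD8-3 below the 2D11 arrays, which the choice of genes that passed favours. Tipin did not pass without 2D11-1 (adjusted p = 0.0502). Pole did not without 2D11-1, 2D11-2, OvacD8-2 or OvacD8-3 (up to 0.157), nor Pola1 without any of these or 2D11-4 (up to 0.114). OvacD8-2 and OvacD8-3 were below the 4 other arrays for 11 of the 37 (29.7%, against 19.1%).

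Of 40 other mitosis genes, 0 were higher and 1 was lower in 2D11 (2.5%, against 3.37%): Racgap1, which acts in cytokinesis (-0.57 ± 0.081, adjusted p = 0.0236; probe sets from -1.19 to 0.011). Racgap1 did not pass without 2D11-1, 2D11-2, 2D11-4 or OvacD8-3 (adjusted p up to 0.0915). OvacD8-2 and OvacD8-3 were above the 4 other arrays for 17 of the 40 (42.5%, against 13.9%) and OvacD8-1 was lowest for 20 (50%, against 10.8%). Ube2c, the ubiquitin-conjugating enzyme of the anaphase-promoting complex, had the widest split: -0.17, 0.17 and -0.45 in 2D11, -1.81 on OvacD8-1, and 2.36 and 2.52 on OvacD8-2 and OvacD8-3. It was named for this after its values were seen. The 5 condensin genes of the list differed among themselves. Ncapd2, Smc2 and Smc4 were lower on OvacD8-2 and OvacD8-3 than on the other arrays, Ncaph was higher there (0.58 and 0.46), and Ncapg was lowest on OvacD8-1 (-1.49).

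Of 25 other genes of G1 and of the E2F and RB families, 1 was higher and 2 were lower in 2D11 (4% and 8%, against 3.3% and 3.37%). Rbl2, for the RB relative p130 of the DREAM complex, was 0.73 to 0.83 in 2D11 and at or below -0.73 in OvacD8. It was higher by 1.67 ± 0.078 (adjusted p = 0.000885, and 0.0121 at most with 1 array left out). Mycn, a MYC family gene, was lower in 2D11 (-2.63 ± 0.049, adjusted p = 0.000158), though 1 probe set carried the difference (-7.94) and others did not (up to 0.031). Cdkn2c, for the CDK4 and CDK6 inhibitor p18, was -0.44, -0.40 and -1.04 in 2D11 and 0.40, 0.94 and 0.94 in OvacD8 (-1.39 ± 0.25, adjusted p = 0.0415). Leaving out any array but OvacD8-1 ended its call (adjusted p up to 0.153). In all 3 genes OvacD8-1 lay on the side of its group, which the choice of genes that passed favours.

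Most other targets of p53 did not have the order of Cdkn1a, though a larger share of them did than of all genes. Of 19 measured, 1 was higher and 1 lower in 2D11 (5.26% each, against 3.3% and 3.37%). Ccng1, for cyclin G1, was higher by 0.48 ± 0.087 (adjusted p = 0.0433). Perp, for an effector of p53 in the cell membrane, was lower in 2D11 (-3.36 ± 0.46, adjusted p = 0.0204). Both calls ended on leaving out any array but OvacD8-1 (adjusted p up to 0.15 for Ccng1 and 0.0876 for Perp). The order OvacD8-1, then 2D11, then OvacD8-2 and OvacD8-3 was met by 3 of the 19 (Mdm2, Plk3 and Pmaip1; 15.8%, against 2.85% of all genes), and 6 were below all other arrays on OvacD8-2 and OvacD8-3 (31.6%, against 19.1%).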

How the data were processed

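Samples were T cells in culture; RNA was amplified (Ovation kit), biotin-labelled and run on 1-colour arrays, per the labels' protocols. The submitters' processing notes name RMA, with no version. The authors deposited log values, taken here as log2: no source used here names the base, but the largest span (11.37) exceeds what a 16-bit scanner allows in natural logs (11.09). The deposited table had been centred, each probe set's median lying within 5e-07 of 0, a step no source used here mentions. Array controls (64 probe sets) were left out. Probe sets with 1 symbol in the platform annotation (34945 of 45101) were averaged per gene, giving 18193 genes; 932 with several symbols were not used. Symbols were checked by Entrez identifier against RefSeq (34741 found, 0 changed).

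Groups came from sample titles. Genes were compared with limma 3.58.1 in R 4.3.3 (lmFit, eBayes, two-sided, n = 3 per group), with Benjamini-Hochberg adjustment over all genes; the fit was tested on simulated data. Alternatives were left-out arrays, a replicate block, the spike-in side, scaling, probe set choice, filters and variance models. With 6 arrays, precision is low. Full values were given for genes that passed with or without OvacD8-1 and for the 3 genes of each list with the widest range; from other lists up to 3 genes that passed were named, by size. Members and lists were chosen with earlier results of these data known. Promoter sequences are RefSeq's (GRCm38.p6).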

Additional observations from a re-analysis of the deposited data

How the results depend on the processing

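Leaving out 1 array at a time gave 523 to 3129 genes that passed between the groups (1214 with all arrays), and 1 to 12 of the 38 cell cycle genes (2 with all arrays). The 12 came without OvacD8-1, a fit in which all remaining OvacD8 arrays are on the low spike-in side. Quantile normalization, the widest probe set per gene, the median of probe sets and a filter on genes spanning at least 0.1 each left 1 of the 38, Pcna. Array weights gave 7391 genes and 23 of the 38, in a fit that stopped before it converged. Pcna passed in all settings run but the replicate block. Tyms passed in fewer: it was lost with 4 left-out arrays, with those 4 settings, with every probe set tested, with the spike-in side and with the block.

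The replicate block, with the numbers in the sample titles, gave 202 genes and 0 of the 38 (Pcna -0.87, adjusted p = 0.0624). Only numbers 1 and 2 occur in both groups, with deviations correlated at 0.001 and 0.172, so nothing shows that the numbers pair the samples.

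With 1.5-fold in place of 2-fold, OvacD8-1, OvacD8-2 and OvacD8-3 differed from the 2D11 mean for 8, 14 and 12 of the 38 genes (3, 8 and 6 at 2-fold), and OvacD8-1 from OvacD8-2 and OvacD8-3 for 16 (8 at 2-fold). Quantile normalization gave 5 for OvacD8-2, and the widest probe set gave 14 for OvacD8-1 against OvacD8-2 and OvacD8-3. The widest probe set moved the median of the 4 G1 regulators from -0.063 to 0.068 on 2D11-4, from 0.058 to 0.244 on OvacD8-2 and from -0.049 to -0.258 on OvacD8-3. Ccnd2 turned from -0.074 as a gene mean to 0.675 (adjusted p = 0.0477) for the probe set with the lowest p. Centring left no signal levels, so dim probe sets were not filtered.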
